A study of Rattus norvegicus with 16 samples.

Results

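The sarcomeric myosin heavy chain genes of rat skeletal muscle are described here across 16 RNA sequencing libraries of the supraspinatus, a muscle of the rotator cuff. The members were the 6 genes Myh4, Myh1, Myh2, Myh7, Myh3 and Myh8, taken by symbol from the 17147 genes of the deposited count table. All 6 passed the filter for low counts, as did 11658 genes of the table in all. The muscle came from Sprague Dawley rats, with 4 libraries in each of 4 groups. The first group was unoperated (0 days), and the others were taken 10, 30 and 60 days after a full-thickness supraspinatus tear on both sides together with suprascapular neurectomy, which cuts the nerve of that muscle. Tear and denervation were always combined, and no sham operation was among the groups, so the effects of tear, denervation and surgery cannot be told apart. The unoperated group is the 0-day control for every time, so time after surgery and age cannot be told apart either. Age and sex are not in the labels used here, nor is which libraries came from the same rat, and p-values therefore measure only the spread between these libraries.

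Myosin heavy chains are the motor subunits of the thick filament, and the isoform a fibre makes largely sets how fast it contracts. Adult rat limb muscle uses Myh4 (type IIB, the fastest), Myh1 (type IIX), Myh2 (type IIA, fast and oxidative) and Myh7 (type I, slow, also the beta chain of the heart). Myh3 (embryonic) and Myh8 (perinatal) are used by developing fibres and return in regenerating or denervated ones. The fast and developmental genes lie side by side: in RefSeq (rat assembly GRCr8) their order along chromosome 10 was Myh3, Myh2, Myh1, Myh4 and Myh8, and Myh7 was on chromosome 15. The genes of the cluster are close copies, as Myh7 is of Myh6. How reads matching several copies were counted is not given in the sources used here, so a part of each count may belong to a neighbour.

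The sequences upstream of 4 of the genes are shown. The 3 adult fast genes were lower at 10 days and share letters there, while Myh3 moved the other way. Myh7 and Myh8 were lower at 10 days as well (log2 -1.84 and -0.91), and their windows do not hold the run described next. A part of these letters in the changes was not tested. RefSeq holds a window of 300 bases, 250 before and 50 after the annotated start, for each of the 6 genes on GRCr8. A run of 20 bases was identical in the windows of Myh4, Myh1 and Myh2, and began at -177, -166 and -170 relative to their starts. It was found in 5 of 33469 windows (0.0149%), and the other 2 belonged to LOC102555216, a long noncoding RNA gene that lies between Myh1 and Myh4, on the opposite strand. Capitals mark that run and, where present within the last 60 bases before the start, the letters TATAAA. All 4 genes are on the plus strand. The stretch of Myh1 is shorter because it stops before the first annotated transcript base, so its TATAAA letters are not in it.
Myh4, GRCr8 chr10:52421898-52422147, plus strand: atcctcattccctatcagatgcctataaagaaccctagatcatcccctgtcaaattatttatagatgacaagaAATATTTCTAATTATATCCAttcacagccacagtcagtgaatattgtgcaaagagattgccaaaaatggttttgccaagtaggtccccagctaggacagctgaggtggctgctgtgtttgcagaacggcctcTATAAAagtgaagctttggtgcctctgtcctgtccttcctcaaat
Myh1, GRCr8 chr10:52384662-52384809, plus strand: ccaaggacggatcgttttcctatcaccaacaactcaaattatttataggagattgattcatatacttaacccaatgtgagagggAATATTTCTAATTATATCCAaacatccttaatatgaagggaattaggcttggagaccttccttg
Myh2, GRCr8 chr10:52355489-52355738, plus strand: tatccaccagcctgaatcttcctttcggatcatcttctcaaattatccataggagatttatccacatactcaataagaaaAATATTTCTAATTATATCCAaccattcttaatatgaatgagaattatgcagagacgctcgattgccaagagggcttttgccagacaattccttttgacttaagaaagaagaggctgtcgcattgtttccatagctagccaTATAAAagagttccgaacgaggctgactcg
Myh3, GRCr8 chr10:52268935-52269184, plus strand: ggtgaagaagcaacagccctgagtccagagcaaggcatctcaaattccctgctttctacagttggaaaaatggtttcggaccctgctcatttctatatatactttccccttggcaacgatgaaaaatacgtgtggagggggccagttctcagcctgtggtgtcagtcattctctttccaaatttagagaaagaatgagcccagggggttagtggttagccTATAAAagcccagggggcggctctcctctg

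Letters of known regulatory motifs were searched on both strands of the 300-base windows. On the plus strand TATAAA began at -45 in Myh4, -33 in Myh1 and -30 in both Myh2 and Myh3, and Myh4 held it again at -227. It was not among the letters of the Myh7 and Myh8 windows, and 14.2% of all 33469 windows held it. The E-box CANNTG, the form bound by MyoD and myogenin, was found 3 times in the Myh4 window, 4 times in that of Myh7 and once in that of Myh3. E-boxes were in 72.1% of all windows, so their presence is common. The MEF2 site, in 3.29% of all windows, was found in Myh4 at -196 and in Myh1 at -212 relative to the start, in both cases overlapping the reverse of TATAAA. The TEAD letters CATTCC, in 14.2% of windows, were found in Myh4 at -245 and in Myh1 at -17, and the CArG box, in 1.64%, in Myh4 at -118. These are matches of letters, with no binding measured in these libraries.

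**Figure D1:**
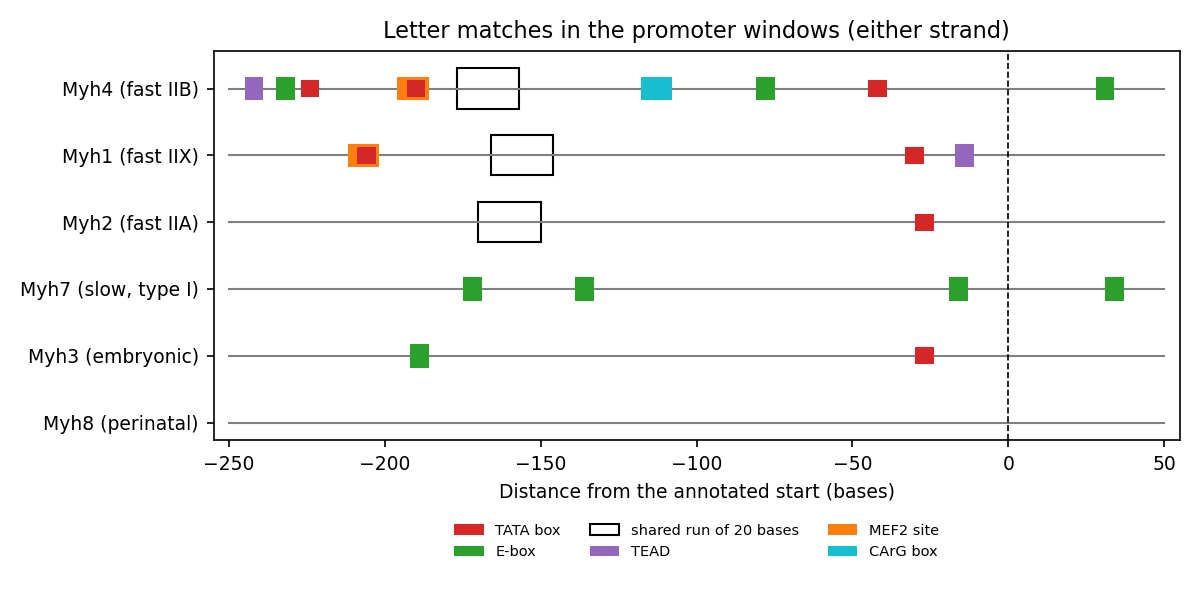
Matches of letters in the RefSeq promoter windows of the 6 genes, by distance from the annotated start in bases (dashed line at 0); boxes are motif matches on either strand, and open boxes are the run shared by Myh4, Myh1 and Myh2. The shared run begins between -177 and -166 in the 3 adult fast genes, and the window of Myh8 holds none of the motifs drawn.

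Totals of deposited fragments per library ran from 22.96 to 35.7 M (M, mega) in the unoperated group, from 24.56 to 28.7 M in the 10-day group, from 22.94 to 39.9 M in the 30-day group and from 17.18 to 22.39 M in the 60-day group, whose 4 libraries were all below the other 12. Levels are fragments of a gene per 1 M fragments of the library (CPM) scaled with TMM factors, whose means were 0.763, 1.20, 1.08 and 1.01 in order of time. The muscle identity of the libraries was checked with Acta1, Ckm, Des and Myoz1, all well detected, whose summed level was 105689 to 112869, 16684 to 21076, 33586 to 59476 and 57339 to 75786 CPM in order of time. All 4 of these fibre markers were lower at each time against 0 days with TMM factors (all genes, 29.4%, 30.9% and 29.1%). With library totals Des was called higher at 10 days (log2 0.25, TMM -0.41) and Acta1 lost its 60-day call (-0.30). In whole muscle, fewer cells of a type and less RNA per cell cannot be told apart. A gene was called higher or lower at an edgeR adjusted p under 0.05 over all genes tested. With library totals in place of TMM factors the median over all genes of the log2 fold change against 0 days moved from 0.06, 0.05 and 0.04 at 10, 30 and 60 days to 0.72, 0.54 and 0.45, and with upper-quartile factors to 0.12, 0.17 and 0.18.

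Muscle taken 10 days after tear and neurectomy held less of every adult myosin heavy chain transcript and of perinatal Myh8, and more of embryonic Myh3. Of the 6 genes, 5 fell and 1 rose. Of all genes tested, 29.4% fell, 33.3% rose and 62.7% changed in either direction. The median log2 fold change of the 6 genes was -1.71, against 0.06 for all genes. At 30 days, 3 of the 6 genes were lower (all genes, 30.9%) and 1 was higher (33.7%), where 64.6% of all genes changed. At 60 days, 3 were lower (29.1%) and 2 were higher (29.9%), where 59.0% of all genes changed. The members' medians at 30 and 60 days were -0.50 and -0.54, against 0.05 and 0.04. With library totals 4 members were lower at 10 days, 2 at 30 days and 1 at 60 days, where 80.2%, 75.1% and 69.9% of all genes changed in either direction. So many genes changed in this muscle that 6 members give a coarse comparison with the background.

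Myh4, the fastest chain and the one with the most fragments in unoperated muscle, was lower at all 3 times. Its 4 unoperated libraries had 43528, 49361, 35720 and 55111 CPM. At 10 days it had 10589, 12065, 15743 and 12091 CPM. The 30-day libraries had 9529, 13314, 14681 and 10975 CPM and the 60-day libraries 5058, 7800, 11078 and 9293. Every operated library lay below every unoperated one. Myh4 fell 3.64-fold at 10 days (log2 -1.86 ± 0.22 SE, edgeR adjusted p = 1.68e-06). It was 3.79-fold lower than unoperated at 30 days (-1.92 ± 0.22, edgeR adjusted p = 1.56e-06) and 5.53-fold lower at 60 days (-2.47 ± 0.23, edgeR adjusted p = 2.15e-07). Alone among the 6 genes, it showed no rise called between any pair of operated groups. Between 10 and 30 days its log2 difference was -0.06 (edgeR adjusted p = 0.844), with overlapping libraries, and 0.01 with upper-quartile factors. At 60 against 10 days it was lower by log2 -0.60 ± 0.22 (edgeR adjusted p = 0.0226), but these libraries overlapped as well. That call was lost without 10-day replicate 3 (-0.48), without 60-day replicate 1 (-0.43), without 60-day replicate 2 (-0.57) and with upper-quartile factors (-0.51).

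Myh1, the IIX chain, had the largest fall of the 6 genes at 10 days and then regained much of its level. The unoperated libraries had 21555, 28705, 39605 and 24309 CPM, and the 10-day libraries 4924, 3592, 3074 and 3356. Later libraries were higher, at 12275, 13659, 15501 and 15979 CPM at 30 days and 19150, 18531, 18991 and 14777 at 60 days. On the TMM scale none of the operated libraries reached the lowest unoperated one. With library totals 60-day replicates 1, 2 and 3 (18552, 18814 and 18906 CPM) were above unoperated replicate 1 (16696). Myh1 fell 7.64-fold at 10 days (log2 -2.93 ± 0.20, edgeR adjusted p = 3.6e-09), and was 1.99-fold lower at 30 days (-0.99 ± 0.19, edgeR adjusted p = 0.00022) and 1.60-fold lower at 60 days (-0.68 ± 0.19, edgeR adjusted p = 0.00522). The 60-day call was lost with library totals (-0.27). Between operated groups it rose 3.84-fold from 10 to 30 days (log2 1.94 ± 0.19, edgeR adjusted p = 1.16e-06), while 60 against 30 days was not called (0.32, edgeR adjusted p = 0.238).

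Myh2, the oxidative IIA chain, was lower at 10 days and higher at 60 days than in unoperated muscle, a crossing seen in no other member. It had 5298, 6290, 5511 and 6553 CPM at 0 days and 3367, 1607, 1234 and 1669 CPM at 10 days. At 30 days it had 5314, 6835, 6198 and 4660 CPM, within and around the unoperated values, and at 60 days 9373, 8127, 9880 and 9184, all above them. Myh2 fell 3.00-fold at 10 days (log2 -1.59 ± 0.23, edgeR adjusted p = 2e-05). It was not called at 30 days (-0.04 ± 0.23, edgeR adjusted p = 0.887), where the sign turned with library totals (0.45) and upper-quartile factors (0.08). It was 1.55-fold higher at 60 days (0.63 ± 0.23, edgeR adjusted p = 0.0271). Leaving out 1 library at a time gave 0.59 to 0.70 with edgeR adjusted p of 0.00103 to 0.0605, and the call was lost without unoperated replicate 1 (0.60), without unoperated replicate 3 (0.61) and without 60-day replicate 3 (0.59). From 10 to 60 days Myh2 rose 4.64-fold (log2 2.21 ± 0.24, edgeR adjusted p = 1.02e-06).

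Myh7, the slow chain, fell at 10 days and had a level at 60 days that was not called different from unoperated muscle. The unoperated libraries had 2649, 4682, 2552 and 3318 CPM, and the 10-day libraries 1343, 1086, 558 and 707. At 30 days it had 1445, 1443, 1762 and 2188 CPM, still below the unoperated values on the TMM scale. With library totals 30-day replicate 4 had 2372 CPM, above unoperated replicates 1 and 3 (2052 and 1915). At 60 days Myh7 had 3171, 3055, 1424 and 2375 CPM on the TMM scale, which overlap the unoperated values. Myh7 fell 3.57-fold at 10 days (log2 -1.84 ± 0.30, edgeR adjusted p = 6.82e-05) and was 1.93-fold lower at 30 days (-0.95 ± 0.29, edgeR adjusted p = 0.0103). The 30-day call was lost with library totals (-0.46). At 60 days the difference was -0.40 ± 0.29 (edgeR adjusted p = 0.253), and 0.01 with library totals.

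Myh3, the embryonic chain, was the only member higher at every time after surgery. Unoperated libraries had 163, 107, 71.2 and 141 CPM. The 10-day libraries had 650, 262, 349 and 431 CPM, the 30-day libraries 2306, 1227, 1258 and 1921, and the 60-day libraries 2498, 1123, 1048 and 1465. No operated library overlapped the unoperated ones. Myh3 rose 3.52-fold at 10 days (log2 1.81 ± 0.35, edgeR adjusted p = 0.00028). It was 13.9-fold above unoperated at 30 days (3.80 ± 0.37, edgeR adjusted p = 4.43e-07) and 12.7-fold above at 60 days (3.67 ± 0.37, edgeR adjusted p = 9.73e-07). The rise from 10 to 30 days was itself called (1.99 ± 0.35, edgeR adjusted p = 0.000248), and 60 against 30 days was not (-0.13 ± 0.33, edgeR adjusted p = 0.817). Summed satellite cell and myoblast markers (Pax7, Myf5, Myod1, Myog and Mymk, which the table lists under its older symbol Tmem8c) ran from 76.4 to 94.6 CPM in unoperated muscle and then 664 to 753, 531 to 861 and 137 to 252 CPM in order of time. Most of that sum was Myog (means of 23.8, 485, 411 and 111 CPM) and Myod1 (59.8, 200, 179 and 66.6). Pax7, the satellite cell marker, averaged only 1.08, 0.957, 0.577 and 1.23 CPM, so the sum does not measure satellite cells. Of these 5 markers, 4 were higher at 10 and 30 days (all genes, 33.3% and 33.7%) and 3 at 60 days (29.9%). Their part in the Myh3 levels was not tested. Myh3 and these markers therefore stood in a different order at 60 days: the marker sum was below its 10-day range, and Myh3 was above its own.

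Myh8, the perinatal chain, was not called higher than in unoperated muscle at any time, unlike Myh3. It had 116, 139, 178 and 114 CPM at 0 days and 82.1, 36.9, 93.8 and 78.5 CPM at 10 days. At 30 days replicate 1 had 212 CPM and the others 98.6, 108 and 108, and at 60 days the values were 97.8, 47.4, 54.5 and 60.5. On the TMM scale the 10-day and 60-day libraries lay below every unoperated one. With library totals they overlapped: unoperated replicate 4 had 87.3 CPM, 10-day replicate 3 had 116 and 60-day replicate 1 had 94.7. Myh8 was 1.88-fold lower at 10 days (log2 -0.91 ± 0.30, edgeR adjusted p = 0.0162) and lower again at 60 days (-1.07 ± 0.31, edgeR adjusted p = 0.00725), and both calls were lost with library totals (-0.24 and -0.67). The 10-day call was also lost without unoperated replicate 3 (-0.75). At 30 days the difference was -0.06 ± 0.30 (edgeR adjusted p = 0.879), and its sign turned with library totals (0.46) and upper-quartile factors (0.07).

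**Figure D2:**
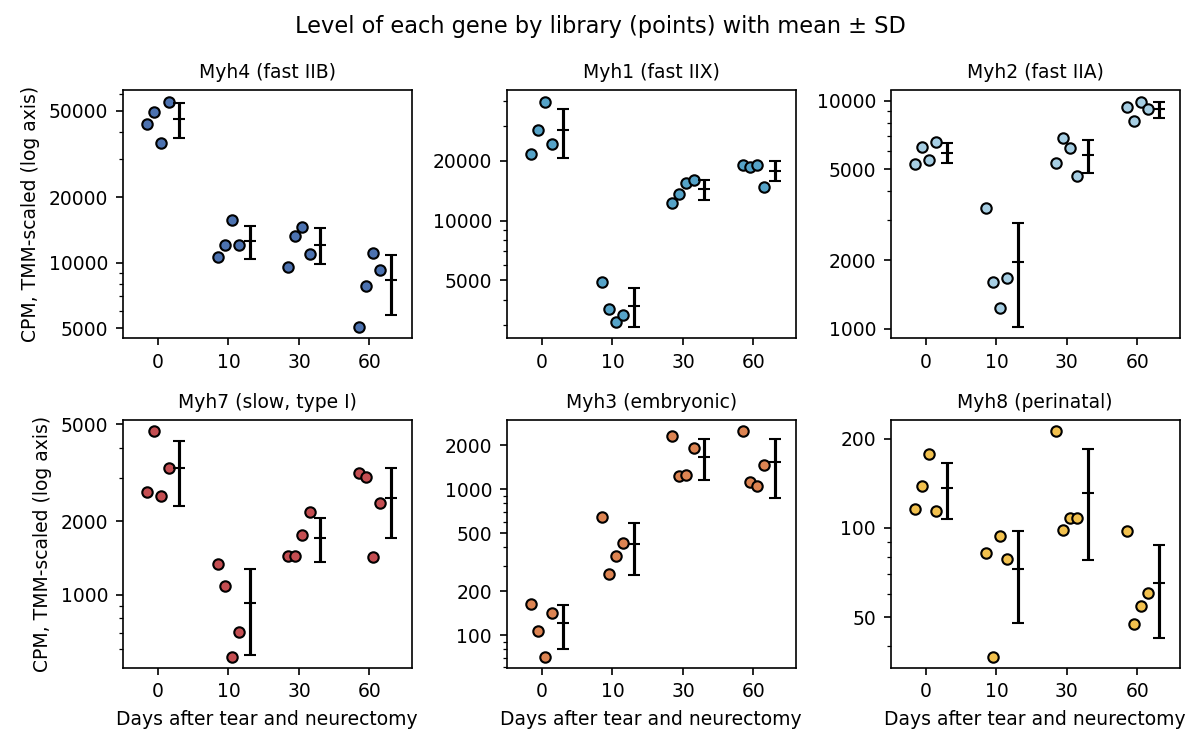
TMM-scaled level of each gene in CPM (log axis, a separate scale per panel) by days after tear and neurectomy; points are libraries, and bars are mean ± SD of 4 libraries. Myh4 stays low after surgery, Myh1, Myh2 and Myh7 are lowest at 10 days, Myh3 is above all unoperated libraries at each time, and 30-day replicate 1 of Myh8 stands at 212 CPM.

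Library totals moved all 18 differences from 0 days upward. With that scaling 5 calls were kept in the same direction while their log2 value moved by over 1.5 times: Myh4 at 10 days (-1.20), Myh2 at 10 days (-0.93), Myh7 at 10 days (-1.19), Myh1 at 30 days (-0.50) and Myh2 at 60 days (1.04). The rises of Myh3 were then 2.47, 4.31 and 4.07 at 10, 30 and 60 days, and Myh4 was lower at all 3 times under each scaling.

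**Figure D3:**
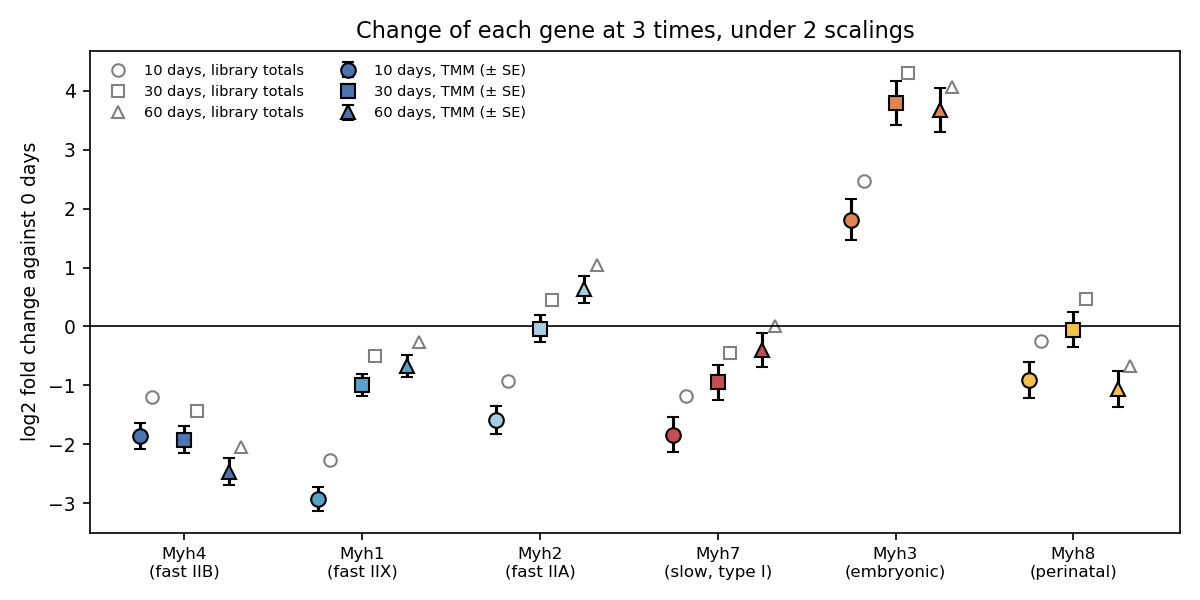
Log2 fold change of each gene against 0 days at 10, 30 and 60 days; filled symbols are TMM-scaled edgeR estimates ± SE and open symbols the same differences with library totals. Library totals turn the sign of Myh2 at 30 days (0.45), Myh8 at 30 days (0.46) and Myh7 at 60 days (0.01), and leave the other 15 directions as they were.

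Between operated groups, most members rose from 10 to 30 days. From 30 to 60 days fewer members were called, as were fewer of all genes. From 10 to 30 days 5 of the 6 genes rose and none fell, where 23.0% of all genes rose and 47.3% changed. The members' median was log2 1.22, against 0.03 for all genes. Myh2 rose by 1.55 ± 0.23 (edgeR adjusted p = 5.98e-05) and Myh7 by 0.89 ± 0.29 (edgeR adjusted p = 0.021), a call lost without 10-day replicate 3 (0.71), 10-day replicate 4 (0.78) or 30-day replicate 4 (0.75). Myh8 rose by 0.85 ± 0.30 (edgeR adjusted p = 0.0302), a call lost without 10-day replicate 2 (0.63), without 30-day replicate 1 (0.52) and with library totals (0.70).

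From 30 to 60 days 1 member rose and 1 fell, where 22.6% of all genes changed, with a median of 0.09 against -0.01. The rise was that of Myh2 (log2 0.67 ± 0.23, edgeR adjusted p = 0.0461), and this call was lost with library totals (0.59) and in 12 of 16 fits without 1 library, with values of 0.58 to 0.76; it was kept without 10-day replicate 1, 2 or 3 or 30-day replicate 2. The fall was that of Myh8 (-1.01 ± 0.30, edgeR adjusted p = 0.0263), a call lost without 30-day replicate 1 (-0.69) and without 60-day replicates 2 (-0.89), 3 (-0.94) or 4 (-0.96). From 10 to 60 days 4 members rose (all genes, 29.1%) and 1 fell (31.9%), where 61.1% of all genes changed, and the median was 1.65 against -0.01. Myh1 had the largest of these rises (2.26 ± 0.19, edgeR adjusted p = 9.05e-08), and Myh7 the smallest (1.44 ± 0.30, edgeR adjusted p = 0.00061). The comparisons with 10 days share those 4 libraries, as those with 0 days share the unoperated ones.

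Together the 6 genes took a smaller part of the messenger RNA after surgery. In order of time they held 6.40% ± 0.551 (SD, n = 4), 2.38% ± 0.209, 3.83% ± 0.174 and 3.99% ± 0.176 of all fragments. On the TMM scale their summed level was 83944 CPM ± 7596 at 0 days and 19747 ± 1456 at 10 days. It was 35749 CPM ± 3493 at 30 days and 39415 ± 2237 at 60 days. The highest operated library, at 42475 CPM, was below the lowest unoperated one, at 73309. These sums are given without a test.

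The balance between the isoforms was described by the share of each gene in the summed fragments of the 6, which does not depend on scaling between libraries. Shares are of fragments and were not divided by transcript length. Myh4 held 54.7% ± 8.42 (SD, n = 4) at 0 days, with libraries at 59.4, 55.3, 42.7 and 61.5%. At 10 days it held 64.0% ± 10.0, with 50.5, 64.7, 74.8 and 66.0%. At 30 days it held 33.7% ± 3.56, with 30.7, 36.4, 37.2 and 30.6%, and at 60 days 21.0% ± 6.03, with 12.9, 20.2, 26.1 and 25.0%. The 30-day and 60-day libraries were all below the unoperated and the 10-day ones, and the 10-day libraries overlapped the unoperated ones. Myh4 had more fragments than any other member in 7 of the 8 libraries at 0 and 10 days, and Myh1 in all 8 at 30 and 60 days and in unoperated replicate 3.

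Myh1 held 34.0% ± 9.13 at 0 days (29.4, 32.1, 47.4 and 27.1%) and 18.9% ± 3.66 at 10 days (23.5, 19.3, 14.6 and 18.3%). It held 40.2% ± 3.10 at 30 days (39.5, 37.3, 39.2 and 44.6%) and 45.3% ± 4.04 at 60 days (48.7, 47.9, 44.7 and 39.8%). Its 10-day libraries were below all others, while the later groups overlapped the unoperated one through unoperated replicate 3. Myh2 held 7.04% ± 0.324 at 0 days (7.23, 7.05, 6.59 and 7.32%) and 9.91% ± 4.34 at 10 days, where replicate 1 had 16.1% and the others 8.62, 5.86 and 9.10%. It held 16.1% ± 2.41 at 30 days (17.1, 18.7, 15.7 and 13.0%) and 23.2% ± 1.58 at 60 days (23.8, 21.0, 23.3 and 24.7%). Both later groups lay above the unoperated libraries, and the 60-day libraries above all others.

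In order of time Myh7 held 3.90% ± 0.939, 4.68% ± 1.74, 4.79% ± 0.927 and 6.43% ± 2.18, with overlap in each pair of groups. Myh3 held 0.146% ± 0.0586, 2.13% ± 0.762, 4.83% ± 1.99 and 3.92% ± 1.74. Its lowest operated library had 1.41%, and its highest unoperated one 0.222%. Myh8 held 0.163% ± 0.0355, 0.366% ± 0.114, 0.381% ± 0.200 and 0.166% ± 0.0581 likewise, with 0.681% in 30-day replicate 1.

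The 36 differences in share (6 genes, 6 pairs of groups) were each tested by a two-sided exact permutation test of 4 against 4 libraries, whose smallest possible p is 0.0286. After Benjamini-Hochberg adjustment over the 36 tests none passed, with a smallest adjusted exact permutation p of 0.0571. The smallest possible unadjusted p was reached by 18 of the 36: 2 at 10 against 0 days, 4 at 30 against 0, and 3 in each of the other 4 pairs. At 10 against 0 days these were Myh1, with a difference of -15.1 percentage points, and Myh3 (1.98). At 60 against 0 days they were Myh4 (-33.7), Myh2 (16.2) and Myh3 (3.77), each with an unadjusted exact permutation p of 0.0286. The widest 95% Wilson interval of a share in 1 library reached 0.124 percentage points either side, and covers counting error only.

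**Figure D4:**
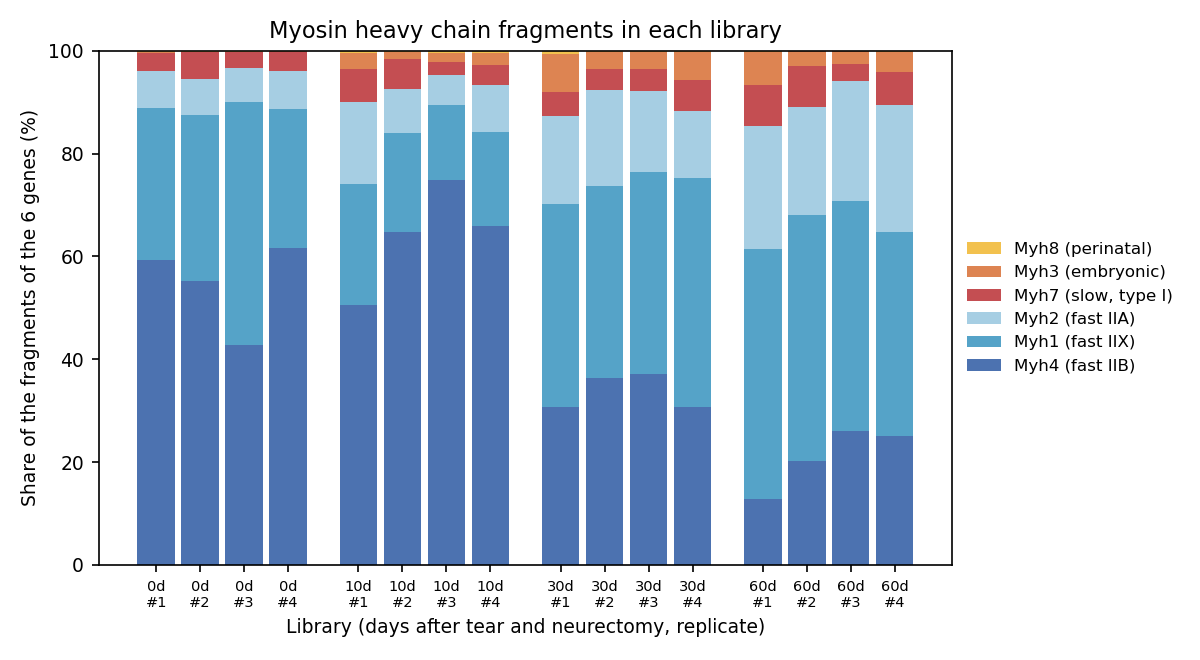
Share of each gene in the summed fragments of the 6 myosin heavy chain genes, in percent, for the 16 libraries by days and replicate. The Myh4 part runs from 42.7 to 61.5% at 0 days and from 12.9 to 26.1% at 60 days, and the Myh2 part from 6.59 to 7.32% and from 21.0 to 24.7%.

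Grouped by role, the 3 fast chains held 95.8% ± 0.922 (SD, n = 4), 92.8% ± 2.13, 90.0% ± 2.64 and 89.5% ± 3.57 of the fragments at 0, 10, 30 and 60 days. Fast chains were thus most of the myosin heavy chain fragments in every group, and the values below show the balance among them. The ratio of Myh1 to Myh4 fragments was 0.657 ± 0.307, 0.309 ± 0.113, 1.21 ± 0.203 and 2.37 ± 1.01 in the same order. That of Myh2 to Myh4 was 0.131 ± 0.0162, 0.167 ± 0.104, 0.479 ± 0.0672 and 1.19 ± 0.444. The developmental chains together held 0.309% ± 0.0483, 2.50% ± 0.822, 5.21% ± 2.17 and 4.08% ± 1.79, and the ratio of Myh3 to Myh8 was 0.952 ± 0.453, 6.06 ± 1.86, 13.2 ± 3.14 and 23.2 ± 2.73. The Myh3 to Myh8 ratio ran from 0.401 to 1.40 in unoperated libraries and from 19.2 to 25.5 at 60 days. These sums and ratios are values without a test.

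The other myosin heavy chain genes did not follow a single course. Of 8 listed, 6 were in the table and 5 passed the filter, and Myh9, a nonmuscle chain, is listed at 0 in all 16 libraries. Myh14, a further nonmuscle chain, had 142 CPM ± 26.2 (SD, n = 4), 505 ± 66.1, 146 ± 18.6 and 130 ± 26.1 in order of time. It rose 3.56-fold at 10 days (log2 1.83 ± 0.16, edgeR adjusted p = 4.97e-08) and fell 3.45-fold from 10 to 30 days (-1.79 ± 0.16, edgeR adjusted p = 4.39e-07); at 30 days it was not called (0.04), but was called higher with library totals (0.55). Myh7b, a slow-type sarcomeric chain, was lower at 10 days (-0.86 ± 0.24, edgeR adjusted p = 0.00624), a call lost with library totals (-0.20), and not called later (0.05 and 0.44), although at 60 days it was called higher with library totals (0.85) and upper-quartile factors (0.58). Myh10, a nonmuscle chain, was higher at 60 days (0.82 ± 0.24, edgeR adjusted p = 0.0092) with overlapping libraries, and at 30 days (0.47) it was called higher only with library totals (0.97) and upper-quartile factors (0.60). Myh11, the smooth muscle chain, had lower levels at 10 days (-1.13 ± 0.23, edgeR adjusted p = 0.000542) and 30 days (-0.90 ± 0.23, edgeR adjusted p = 0.00327), both lost with library totals (-0.47 and -0.40). Myh6, the atrial chain and the near-copy of Myh7, was not called at any time. It had 91 fragments (4.06 CPM) in unoperated replicate 3 and 85 (3.42 CPM) in 30-day replicate 4, and 23.4 to 156 CPM in the other 14 libraries.

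The partners of the fast chains listed were light chains and their kinase, a myosin-binding protein, and thin-filament, Z-disc and calcium-handling genes. Of these 11 genes, 11, 8 and 7 were lower at 10, 30 and 60 days, and none was higher. Library totals gave 10, 5 and 6 lower and 0, 3 and 2 higher. With TMM factors 29.4%, 30.9% and 29.1% of all genes were lower and 33.3%, 33.7% and 29.9% higher at these times. That is the background for the TMM counts of this list and those that follow. With library totals 80.2%, 75.1% and 69.9% of all genes were called in either direction, with medians of 0.72, 0.54 and 0.45. Counts with library totals in this list and those that follow stand against that general shift. With TMM factors the medians of the list were log2 -1.85, -0.63 and -0.86, where those of all genes were 0.06, 0.05 and 0.04. Mylk2, the kinase of the skeletal regulatory light chain, had log2 changes of -3.73, -3.09 and -1.95 at 10, 30 and 60 days. Mybpc2, the fast myosin-binding protein C, had changes of -4.38, -2.61 and -1.56. Actn3, the fast-fibre alpha-actinin of the Z-disc, had log2 changes of -3.18, -2.21 and -1.89. From 10 to 60 days these 3 genes rose (1.78, 2.83 and 1.29, all called), where Myh4 was lower (-0.60).

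Among 11 partners of slow fibres, 10, 4 and 2 were lower at the same times and none was higher, but with library totals 5 were higher and 3 lower at 30 days, and 4 higher and 0 lower at 60 days. The lower counts at 30 and 60 days were near or under the shares of all genes. Their medians were -1.47, -0.35 and -0.01. Tpm3, the slow tropomyosin, fell (log2 -2.14 and -1.15) at 10 and 30 days and differed by -0.25 at 60 days, which was not called. Mybpc1, the slow myosin-binding protein C, had log2 changes of -1.86, -0.95 and -0.52, the last call being lost with library totals (-0.12) and upper-quartile factors (-0.39). Atp2a2, the calcium pump of slow fibres and heart, had log2 changes of -1.19, -1.14 and -0.83, and the 60-day call was lost with library totals (-0.43).

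Of 8 developmental fibre genes 7 were in the table, and 6 were higher and 1 lower at 10 and 30 days, and 5 higher and 1 lower at 60 days, with medians of 3.58, 3.83 and 1.74. Chrng, the fetal subunit of the acetylcholine receptor, rose by log2 7.11 ± 0.59, 7.58 ± 0.59 and 2.54 ± 0.62 at 10, 30 and 60 days. Its level averaged 0.931, 129, 179 and 5.34 CPM in order of time. Tmem8c (Mymk), needed for myoblast fusion, rose by 4.58, 6.09 and 1.45, and Ncam1, an adhesion protein spread over denervated fibres, by 4.91, 3.67 and 1.74. Between 30 and 60 days 5 of the 7 fell, where 22.6% of all genes changed in either direction, while Myh3 differed by -0.13. Cdh15, the cadherin of satellite cells and myoblasts, was the member that fell (-1.07, -0.87 and -0.69), and its 60-day call was lost with library totals (-0.28).

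Of 27 regulators of fibre type or of myosin genes 24 were tested. At 10, 30 and 60 days 5, 5 and 3 were higher and 12, 15 and 13 lower, and with library totals 10, 7 and 6 were higher and 4, 12 and 8 lower, which turned the balance at 10 days. Myog, the myogenic factor induced by denervation, rose by log2 4.35, 4.11 and 2.22. Hdac4, a repressor of MEF2 targets, rose by 2.98 and 1.19 at 10 and 30 days and differed by 0.33 at 60 days (called with library totals, 0.73, and upper-quartile factors, 0.46), and Myod1 rose by 1.74 and 1.58 and differed by 0.16. Tead1, whose factor family binds the letters CATTCC, had log2 changes of -1.08, -1.95 and -1.71, although with library totals the 10-day difference was -0.43 and not called. Ppp3r1, the regulatory subunit of calcineurin, had log2 changes of -1.19, -1.10 and -1.25, and Ppard, a nuclear receptor linked to oxidative fibres, of -0.99, -1.27 and -1.23, all 6 called lower.

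For the folding, assembly and turnover of myosin 12 of 15 listed genes were tested, with 6, 3 and 2 higher and 4, 5 and 5 lower at the 3 times, which library totals turned to 9, 8 and 7 higher and 2, 3 and 4 lower. Mybph, a myosin-binding protein related to Mybpc1 and Mybpc2, rose by log2 2.77, 3.93 and 2.03, opposite to both of those relatives. Trim55, a muscle ubiquitin ligase that binds the sarcomere, rose by 1.75 and 0.68 at 10 and 30 days and differed by 0.09 at 60 days (called with library totals, 0.49), and Hsp90aa1, a chaperone of myosin folding, rose by 0.69, 0.54 and 0.37 (1.34, 1.03 and 0.77 with library totals), and its 60-day call was lost with RLE factors (0.37). Myom2, an M-band protein that links myosin filaments, had log2 changes of -2.26, -1.38 and -0.75. Smyd1, a muscle methyltransferase needed for thick-filament assembly, had log2 changes of -1.07, -1.28 and -1.04, the 10-day call being lost with library totals (-0.41). Myom1, a further M-band protein, fell by 1.13 at 10 days and fell by 0.32 at 30 days, a call lost with upper-quartile factors (-0.20) and turned in sign with library totals (0.17). At 60 days it differed by -0.18, which library totals turned to a called 0.23.

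**Figure D5:**
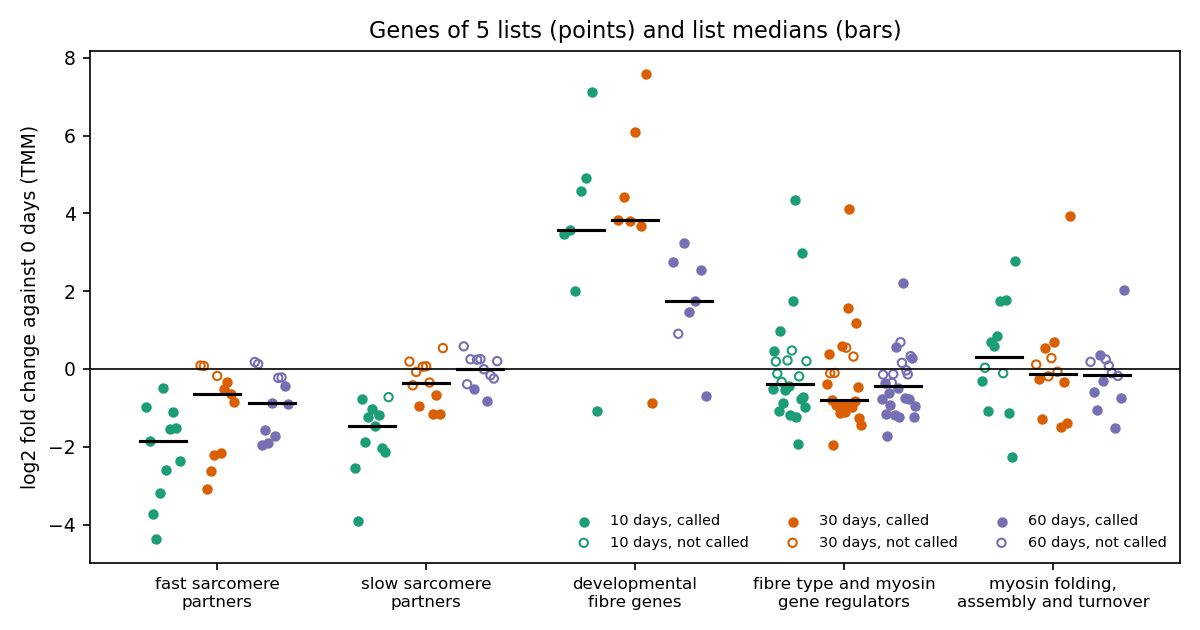
Log2 fold change against 0 days (TMM) of the tested genes of 5 lists at 10, 30 and 60 days; filled points are genes called at an adjusted p under 0.05, open points are not, and bars are list medians. Fast partners have medians of -1.85, -0.63 and -0.86, slow partners -1.47, -0.35 and -0.01 (0.14 and 0.40 at 30 and 60 days with library totals), and developmental genes 3.58, 3.83 and 1.74; with library totals the medians of the last pair of lists at 10 days are 0.27 for regulators, where TMM gives -0.38, and 0.97 for folding genes.

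Markers of other cells also differed between the groups, and their part in the myosin results was not tested. Summed macrophage markers ran from 12.7 to 23.5, 42.7 to 62.7, 59.3 to 74.8 and 44.8 to 88.2 CPM in order of time, with 4, 5 and 5 of 5 higher. Fibroblast markers ran from 429 to 929, 820 to 2406, 1331 to 2145 and 1221 to 2600 CPM, also with 4, 5 and 5 of 5 higher. Adipocyte markers ran from 7.93 to 44.1 CPM at 0 days and 55.6 to 129 at 60 days, when all 5 were higher, and none was called at 10 or 30 days. Endothelial and smooth muscle markers were lower for 5 of 5 each at 10 days, and Schwann cell markers for 2 of 5. Schwann cell markers were higher for 2 of 5 at 30 days and 4 of 5 at 60 days. These sums and counts are with TMM factors and depend on them. Library totals moved the median of all genes from log2 0.06 to 0.72 at 10 days. Myh11 of the smooth muscle markers then lost its 10-day call (-0.47). From 0 to 10 days the TMM means of Pecam1 (59.2 to 44.4 CPM), Cdh5 (54.5 to 38.4) and Smtn (77.8 to 61.5) fell by less than that shift. The direction of these genes at 10 days thus depends on the scaling. No marker of these lists was at 0 in all libraries. On the TMM scale the summed fibre, endothelial, smooth muscle and Schwann cell markers all had their lowest values in the 10-day group, as did Myh1, Myh2 and Myh7.

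The genes whose course over the 16 libraries was most like that of each member were found by the root mean square difference in log2 CPM after centring, among 8224 genes with a mean of at least 5 CPM. Myh1 lay closest to Acta1, skeletal muscle actin (0.21), then Tpi1 (0.28) and Pgam2 (0.30), both glycolytic enzymes. Myh7 lay closest to Tpm3 (0.23), Tnnc1, the slow and cardiac troponin C (0.28), and Myoz2, a Z-disc protein of slow fibres (0.30). Nearest to Myh2 were Pola2, a DNA polymerase subunit (0.26), the adaptor Sh3kbp1 (0.29) and Idh2, a mitochondrial isocitrate dehydrogenase (0.29). Nearest to Myh4 were Atp1b2, a sodium pump subunit (0.36), Gpt2, a mitochondrial alanine aminotransferase (0.38), and the mitochondrial carrier Sfxn5 (0.39). Nearest to Myh3 were Tnnt2, the cardiac and embryonic troponin T (0.43), Cilp, a matrix protein of cartilage (0.50), and Mgmt, a DNA repair enzyme (0.68). Myh8 had no neighbour closer than Tor3a (0.41), Tmem41a (0.42) and Ubl4a (0.46). Within the family, Myh1 and Myh7 were closest (0.57), followed by Myh1 and Myh2 (0.59), and Myh3 and Myh4 were farthest apart (2.52). Myh4 lay farther from Myh1 and Myh2 (1.17 and 1.36) than they from each other. Any part of the 20-base run shown above in these distances was not tested.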

How the data were processed

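Polyadenylated RNA of rat supraspinatus was sequenced in 16 libraries (miRNeasy extraction and TruSeq mRNA v2 preparation, per the labels). The authors deposited a table of expected counts, raw fragments per gene from CuffDiff, not scaled for depth or length. Of its 17147 genes 233 had a fractional value, and none of the 6 members did. The submitters' processing notes name bcl2fastq 1.8.4, FastQC, TopHat2 2.0.9, Bowtie2 2.1.0.0, Cufflinks, Cuffdiff 2.1.1 and the build rn5. Strandedness, annotation and the treatment of reads with several matches are not given in the sources used here. Genes are listed by symbol only, and 14500 symbols matched RefSeq (GRCr8), used for names, gene order and promoter letters. RefSeq also gives Myh1 as an older synonym of Myh2, and symbols were matched as current ones.

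Counts were rounded. A low-count filter, filterByExpr with the 4 groups, left 5489 genes untested. All 16 libraries entered 1 edgeR 4.0.16 quasi-likelihood model (R 4.3.3, TMM factors, robust, no covariate), with Benjamini-Hochberg adjustment over 11658 genes. SE is the log2 fold change divided by the square root of F. The common biological coefficient of variation was 0.150. Shares were compared by exact permutation tests (scipy 1.17.1). Replicates of a group differed by far more than counting noise (chi-square per gene 13.5 to 108). The edgeR fit was tested on simulated counts in which few genes changed, evenly up and down, and the exact test on random values. That does not cover changes in most genes, as seen here. The members and lists were chosen with earlier results of these data known. Named genes were all members, all other myosin heavy chains, the 3 largest rises and falls of each list called the same way at 2 or more times, and the 3 nearest genes of each member. Alternatives were RLE, upper-quartile and library-total scaling, scaling without the 6 genes, DESeq2 1.42.0, limma-voom 3.58.1, no filter, a mean of at least 1 CPM, no robust estimation, only the 2 groups compared, an adjusted p under 0.01, the column suffix as a replicate block, the title letter (meaning not stated) as a covariate, and the omission of each library.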

Additional observations from a re-analysis of the deposited data

Results flagged for a closer look

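In 72 groups of 4 values (levels of the myosin heavy chain genes and shares of the 6) a library was marked as standing apart when its gap to the nearest other, over the range of the group, passed the 95% critical value of Dixon's test. This happened in 5 groups, where chance alone marks about 1 in 20. Myh1 at 60 days had 14777 CPM in its lowest library, replicate 4, and 18531 to 19150 in the others. Myh8 at 30 days had 212 CPM in its highest library, replicate 1, and 98.6 to 108 in the others, and the share of Myh8 there was 0.681% against 0.269 to 0.301%. Myh10 at 0 days had 129.8 CPM in its highest library and 93.5 to 95.9 in the others. Myh11 at 10 days had 59.998 CPM in its highest library and 44.7 to 45.9 in the others.

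Myh2 was marked because it was lower at 10 days (log2 -1.59) and higher at 60 days (0.63) than at 0 days. The difference between these, 60 against 10 days, was 2.21 (edgeR adjusted p = 1.02e-06), and all 4 libraries at 60 days were above all 4 at 10 days.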

How the results depend on the processing

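All 36 differences (6 genes, 6 pairs of groups) kept direction and call with RLE factors, limma-voom, no robust estimation, a mean of at least 1 CPM and scaling without the 6 genes. Library totals reversed Myh2 (0.45) and Myh8 (0.46) at 30 against 0 days and Myh7 (0.0084) at 60 against 0 days. That scaling ended 6 calls, made 1 and left 3 members called at 60 against 0 days. Upper-quartile factors reversed Myh2 (0.084) and Myh8 (0.069) at 30 against 0 days and Myh4 (0.011) at 30 against 10 days, and the title letter reversed Myh8 at 30 against 0 days (0.0067). None of the reversed differences was called in any of these fits. An adjusted p under 0.01 left 3 called at 30 against 10 days and 0 at 60 against 30 days. The latter count was 1 with no filter and 1 with only the 2 groups compared. Leaving out 1 library gave 0 to 2 there, and reversed uncalled differences: Myh2 at 30 against 0 days ran from -0.13 to 0.048, Myh8 from -0.38 to 0.099, Myh4 at 30 against 10 days from -0.16 to 0.065 and Myh3 at 60 against 30 days from -0.47 to 0.062. No filter ended the calls of Myh8 at 30 against 10 days (0.84) and Myh2 at 60 against 30 days (0.66), and only the 2 groups compared ended those of Myh8 at 30 against 10 (0.84) and 60 against 30 days (-1.01). DESeq2 added Myh4 at 60 against 30 days (-0.53). Of the 576 fits of a difference without a library, 28 ended a call and 1 made one. Shares passing an unadjusted exact permutation p were 2, 4, 3, 3, 3 and 3 in the order 10, 30 and 60 against 0, 30 against 10, 60 against 30 and 60 against 10 days, where adjustment left 0. On the log2 scale the Myh8 share at 60 against 0 days reversed (-0.016). The cause of these changes was not tested.

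Libraries share column suffixes across groups, and 4 of 16 correlated best with their own suffix (mean correlation 0.0013, pairs -0.237 to 0.216). That gave no sign of pairing by suffix, but so few libraries cannot exclude a weak one. With the replicate block the Myh2 call at 60 against 30 days was lost (0.67, edgeR adjusted p = 0.06), Myh4 was gained there (-0.57, edgeR adjusted p = 0.0414), and the other 34 stayed. Division by coding length was not run, since no transcript lengths were used here, and Myh13 and Myh15 could not enter a wider sum, for which Myh6 and Myh7b were used. Depth limited no member: the lowest level, 36.9 CPM of Myh8, stands on far more than 3 fragments.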
